A study of Mus musculus with 14 samples.

Results

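The genes described here lie beside Terf2 on mouse chromosome 8: Sntb2, Vps4a, Cog8, Nip7 and Tmed6 on the low-coordinate side, and Cyb5b, Nfat5 and Nqo1 on the high-coordinate side. They were chosen by name and position, as the rows of the deposited tables that carry 1 of these 8 symbols, and every such row had a locus on chromosome 8. The 8 genes have 11 coding-sequence rows, out of 26348 rows of 20492 genes in each table. Total RNA was sequenced from the cortex and hippocampus of C57BL/6 mice aged 3 months, and the labels place 4 cortex samples in the control and 3 in the TRF2-depleted group, and 3 hippocampus samples in each. The label for the depleted mice is TRF2-DCX-cre, which names a Cre recombinase after Dcx, whose product marks immature neurons, so cells outside that lineage would keep Terf2. The control mice are described only as control or WT. For 1 more TRF2-depleted sample the title says hippocampus and the tissue tag cortex, and it was left ungrouped. That choice does not take the sample out of the deposited tables, and its reads may form part of the TRF2-depleted values of either tissue. The sample numbers given here come from the labels, and those behind the deposited values and tests could differ. The hippocampus table also holds a further condition called DKO, which no label used here describes, so its values are given under that name alone.

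Every row has 1 pooled FPKM value for each condition (fragments assigned to it, scaled for length and for all mapped fragments), so no value below carries an error between animals and the read depth is unknown. The only measure of replicate spread is the authors' own test, with its p-value and its q-value adjusted for many tests, and a row is called here at a deposited q of 0.05 or less. A gene's level is the sum of FPKM over its rows, and a log2 ratio is that of the first-named over the second-named condition. The 2 tissue tables were normalized separately, and levels across them are set side by side only. In whole tissue, fewer cells of a type and less RNA per cell cannot be told apart. FPKM over all rows totalled 161467 (control) and 159494 (TRF2-depleted) in cortex, and 168036 (control), 168887 (TRF2-depleted) and 171147 (DKO) in hippocampus.

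Terf2 encodes TRF2, a shelterin protein that shields chromosome ends from being treated as broken DNA. Its neighbours have unrelated jobs. Vps4a encodes an ATPase that takes apart ESCRT-III filaments on endosomes and at the midbody, Cog8 a subunit of the complex that tethers vesicles within the Golgi, and Tmed6 a member of the p24 family of cargo receptors between endoplasmic reticulum and Golgi. Cyb5b encodes the cytochrome b5 of the outer mitochondrial membrane, and Nqo1 a quinone reductase that is a classic target of the oxidative stress factor NRF2. Nip7 takes part in assembly of the large ribosomal subunit, Nfat5 is the transcription factor that answers osmotic stress, and Sntb2 is a syntrophin, an adaptor that ties signalling proteins to the dystrophin complex. Neighbours of a targeted gene are often read as a check that an engineered allele has altered 1 gene and not its surroundings.

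The 8 genes span 467 kb in the GENCODE M21 annotation of GRCm38, the assembly also named mm10, from 106935750 to 107403206. Tmed6 is the nearest, 3755 bases from the end of Terf2 (107069400 to 107096547, minus strand). Nip7 (107056877 to 107060931) is 8.47 kb away, Cog8 (107046289 to 107056689) 12.7 kb, Vps4a (107031222 to 107045755) 23.6 kb and Sntb2 (106935750 to 107019714) 49.7 kb. On the other side, beyond the Terf2 start, Cyb5b (107150640 to 107187471) begins after 54.1 kb, Nfat5 (107293470 to 107379517) after 197 kb and Nqo1 (107388225 to 107403206) after 292 kb. Of the 8, 5 are on the plus strand, and Cog8, Tmed6 and Nqo1 share the minus strand with Terf2. Cog8 overlaps Pdf, a peptide deformylase gene on the same strand, by 2326 bases in that annotation, and the deposited tables give both genes 1 locus. The labels do not say whether reads were assigned by strand, so the split between Cog8 and Pdf, and the tail of Vps4a, which Pdf overlaps by 1058 bases, are uncertain.

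Cog8 and Nip7 are the 1 head-to-head pair among adjacent members. By RefSeq's promoter table (GRCm38.p6) their first transcribed bases leave 139 bases between them, at chr8:107056738-107056876. These are shown because any element in them lies upstream of both genes. The plus strand is printed, with the letters CCGGAAG, the core bound by ETS factors, in capitals:
Cog8 and Nip7: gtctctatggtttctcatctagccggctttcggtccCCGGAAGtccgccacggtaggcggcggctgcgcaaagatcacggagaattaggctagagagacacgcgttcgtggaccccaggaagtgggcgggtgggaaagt

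Tmed6, nearest to Terf2 and almost without signal, and Vps4a, among the most abundant, differ in the letters upstream of their starts. For Tmed6 the 250 upstream bases (chr8:107065645-107065894, minus strand) are printed, and for Vps4a (plus strand) the 203 bases that end before GENCODE's first base (chr8:107031019-107031221). Capitals mark the GC box GGGCGG on either strand.
Tmed6: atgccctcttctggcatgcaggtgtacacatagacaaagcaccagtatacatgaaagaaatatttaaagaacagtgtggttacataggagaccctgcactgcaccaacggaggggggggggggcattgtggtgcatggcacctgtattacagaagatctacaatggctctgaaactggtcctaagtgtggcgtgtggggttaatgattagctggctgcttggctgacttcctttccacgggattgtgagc
Vps4a: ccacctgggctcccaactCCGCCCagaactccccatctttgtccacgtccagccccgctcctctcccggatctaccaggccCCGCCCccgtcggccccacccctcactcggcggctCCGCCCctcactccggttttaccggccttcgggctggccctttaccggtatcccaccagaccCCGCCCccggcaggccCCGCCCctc

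RefSeq's table holds 7 of the 8 members. In the 250 bases upstream of the start, Tmed6 has 3 CpG dinucleotides and Nqo1 has 5, while Vps4a has 19, Cyb5b 20, Cog8 21, Nip7 22 and Nfat5 23, against a median of 6 over 32851 promoters. The 2 members with few CpG dinucleotides are also the 2 with the lowest levels below, a description over 7 promoters. GGGCGG, searched on both strands, occurs upstream of Vps4a, Cog8, Nip7, Nfat5 and Nqo1, and in 32.7% of all promoters. CCGGAAG occurs upstream of Cog8, Nip7 and Nfat5 and in 6.91% of all, and CCAAT upstream of Cyb5b and Nip7 and in 33.8%. The antioxidant response element TGACNNNGC was in 10.2% of all promoters and in none of the 7 member windows, that of Nqo1 included. Bases farther upstream than 250 were not searched, so an element there would be missed. The windows of Cog8 and Nip7 share bases, so they are not separate examples.

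Terf2 itself was far lower in the TRF2-depleted cortex, at 3.59 FPKM in control and 0.202 FPKM summed over its 3 rows, a log2 ratio of -4.15. In the hippocampus its sum was 2.01 FPKM in control, 0.883 FPKM in the TRF2-depleted group and 0.753 FPKM in DKO, with log2 ratios to control of -1.19 and -1.42. None of this passed the authors' test: the 1 tested row in cortex had p = 0.105 and q = 0.576 in the authors' deposited table, and no Terf2 row was tested in hippocampus.

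No neighbour with signal in both conditions had a log2 ratio to control as low as that of Terf2. Terf2 itself was not called, so the counts of calls below cannot tell the neighbours from it. Of the 6 members tested, with 1 tested row each, 0 were called in any of the 4 comparisons of the authors' deposited table. The share of all tested rows called was 0.304% in cortex, 0.163% for TRF2-depleted against control hippocampus, 0.181% for DKO against control and 0.154% for DKO against TRF2-depleted, so a count of 0 among 6 rows does not set the members apart from other genes. With an unadjusted p under 0.05 the number of members was 0, 1, 1 and 0, beside 6.24%, 4.89%, 6.71% and 4.79% of all tested rows in the same order. Tmed6 and Nqo1 were not tested by the authors in any comparison. The farthest log2 ratio from 0 of any of the 7 members with signal in both conditions was 0.70, that of Nfat5 in cortex.

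**Figure D1:**
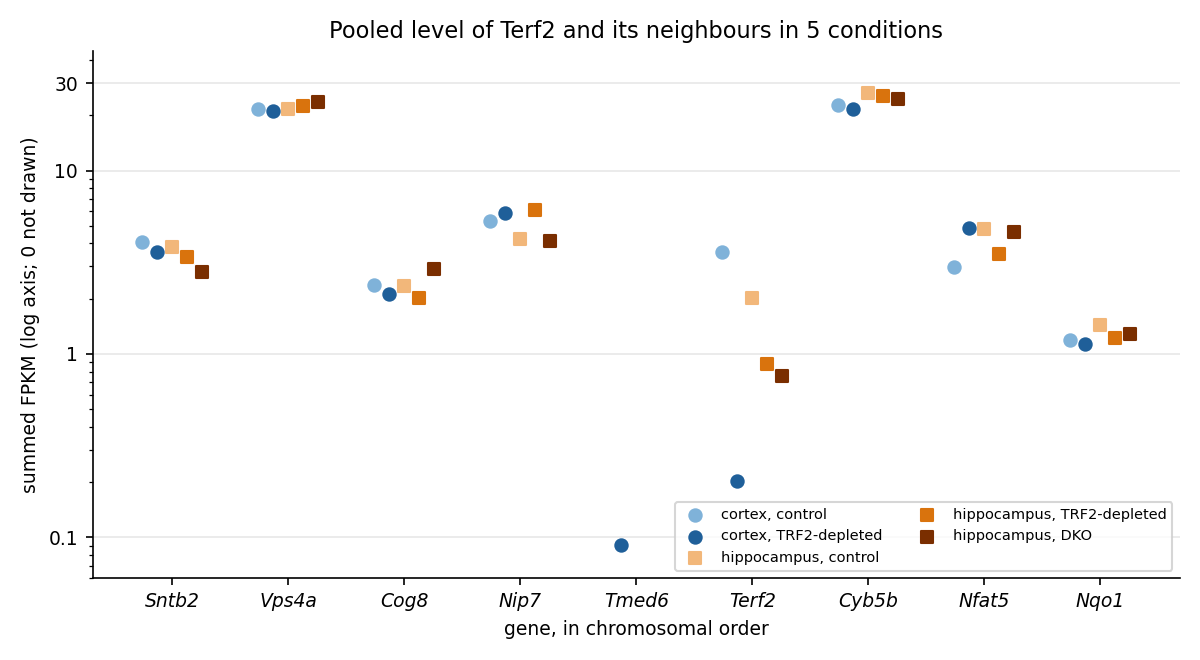
Summed FPKM (log axis) of Terf2 and its 8 neighbours in chromosomal order, 1 pooled value per condition, so no error bars can be drawn. Terf2 drops from 3.59 to 0.202 FPKM in cortex, while Vps4a and Cyb5b stay between 21.2 and 26.6 FPKM in all 5 conditions.

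Among the trafficking genes, Vps4a had 21.6 and 21.2 FPKM in cortex (control, then TRF2-depleted), and 21.6, 22.5 and 23.6 FPKM in hippocampus (control, TRF2-depleted and DKO in that order). Its 5 values span a 1.11-fold range. The log2 ratios were -0.03 in cortex (p = 0.772), 0.05 for TRF2-depleted hippocampus (p = 0.683) and 0.13 for DKO against control (p = 0.322), with p from the authors' deposited table. Vps4a lies 23.6 kb from a gene whose FPKM differed 17.8-fold between the same cortex groups.

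Cog8 had a far lower FPKM. Its level was 2.37 and 2.11 FPKM in cortex (control, then TRF2-depleted), and 2.33, 2.02 and 2.90 FPKM in hippocampus (control, TRF2-depleted and DKO in that order). DKO hippocampus held the highest and TRF2-depleted hippocampus the lowest of the 5 values, with a log2 ratio of 0.52 between them and p = 0.390 in the authors' deposited table. The overlapping Pdf row had 6.50 FPKM in control, 3.96 FPKM in TRF2-depleted and 4.55 FPKM in DKO hippocampus in the authors' deposited table, with p = 0.107 and 0.276 against control. Cog8 and Pdf therefore had log2 ratios of opposite sign in DKO against control, 0.31 and -0.51, and of the same sign in the other 3 comparisons.

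Tmed6, the member closest to Terf2, was listed at 0 in 4 of the 5 conditions and at 0.0909 FPKM in the TRF2-depleted cortex by the authors' deposited table. No fold is given against a value listed at 0. With no counts, it is not known what level a listed 0 allows.

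Of the redox genes, Cyb5b was the most abundant member in every condition, ahead of Vps4a. It had 22.6 and 21.7 FPKM in cortex (control, then TRF2-depleted), and 26.6, 25.3 and 24.6 FPKM in hippocampus (control, TRF2-depleted and DKO in that order). Each depleted or DKO value was a little below its control, with log2 ratios of -0.06 in cortex, -0.07 in TRF2-depleted hippocampus and -0.11 in DKO, and p was 0.527, 0.579 and 0.335 in the authors' deposited table. The 2 hippocampal comparisons share 1 control value, so their direction is not a repeat.

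Nqo1 was the lowest of the members with steady signal. It had 1.19 and 1.13 FPKM in cortex (control, then TRF2-depleted), and 1.44, 1.23 and 1.28 FPKM in hippocampus (control, TRF2-depleted and DKO in that order). The log2 ratios to control were -0.07, -0.23 and -0.18, and the authors' test was not run on this row.

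Sntb2, the farthest member on the low side, was below control in all 3 contrasts with control. The hippocampal contrasts among these share 1 control value, so their direction is not a repeat. Its level was 4.08 and 3.58 FPKM in cortex (control, then TRF2-depleted), and 3.81, 3.39 and 2.78 FPKM in hippocampus (control, TRF2-depleted and DKO in that order). The log2 ratio of DKO to control hippocampus was -0.46 (p = 0.00825, q = 0.591) in the authors' deposited table, the 1 member under an unadjusted 0.05 in that comparison. In the authors' deposited table the ratio had p = 0.181 in cortex (log2 ratio -0.19) and p = 0.335 in TRF2-depleted hippocampus (-0.17). Against TRF2-depleted hippocampus DKO had a log2 ratio of -0.29, with p = 0.0981 in the authors' deposited table.

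Nip7 and Nfat5 have several rows, 2 and 3, each standing for a group of transcripts with 1 coding sequence, and here the row and the gene tell different stories. Nip7 summed to 5.31 and 5.90 FPKM in cortex (control, then TRF2-depleted), and to 4.22, 6.11 and 4.14 FPKM in hippocampus (control, TRF2-depleted and DKO in that order). TRF2-depleted hippocampus held the highest of the 5 values, with a log2 ratio to control of 0.53. Its main row alone went from 3.12 to 6.11 FPKM, a log2 ratio of 0.97 (p = 0.0117, q = 0.663) in the authors' deposited table, the smallest p of any member in that comparison. The second row went the other way, from 1.10 to 0.00332 FPKM, and was not tested by the authors. Part of the difference in the main row is thus matched by an opposite difference within the gene.

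The division between the Nip7 rows also differed in cortex, in the opposite direction. The main row held 97.6% of the gene's FPKM in control and 70.2% in TRF2-depleted cortex, and 73.9%, 99.9% and 98.6% in control, TRF2-depleted and DKO hippocampus. In cortex the main row had a log2 ratio of -0.32 (p = 0.586 in the authors' deposited table) and the sum 0.15. For DKO against control hippocampus the main row had 0.39 (p = 0.472 in the authors' deposited table) and the sum -0.03. The direction for Nip7 in these 2 comparisons therefore depends on whether the row or the gene is read.

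Nfat5 had the widest range of any member with signal in all conditions, 1.63-fold between its lowest and highest sum. In cortex it summed to 2.99 FPKM in control and 4.86 FPKM with TRF2 depleted, and to 4.80, 3.50 and 4.62 FPKM in hippocampus (control, TRF2-depleted and DKO in that order). The log2 ratio of TRF2-depleted to control was 0.70 in cortex and -0.46 in hippocampus, opposite in sign, and the difference between tissues was not tested. In cortex the tested row went from 1.80 to 3.83 FPKM with p = 0.251 in the authors' deposited table. In hippocampus the tested row was another one, which had 4.13, 1.48 and 2.49 FPKM in control, TRF2-depleted and DKO, with p = 0.173 and 0.349 against control in the authors' deposited table.

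The row tested in hippocampus held 86.0% of the gene's FPKM in control hippocampus, 42.3% in the TRF2-depleted group and 53.9% in DKO. The first row held 60.4% and 78.8% in control and TRF2-depleted cortex, but 9.19%, 29.7% and 32.0% in control, TRF2-depleted and DKO hippocampus. The tables do not say which Nfat5 protein form each row stands for. Rows of genes with several rows often vary in this way: 14.5% of such tested rows in cortex and 18.8% in TRF2-depleted against control hippocampus had at least a 2-fold ratio, against 2.38% and 4.28% of the tested rows of genes with 1 row.

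**Figure D2:**
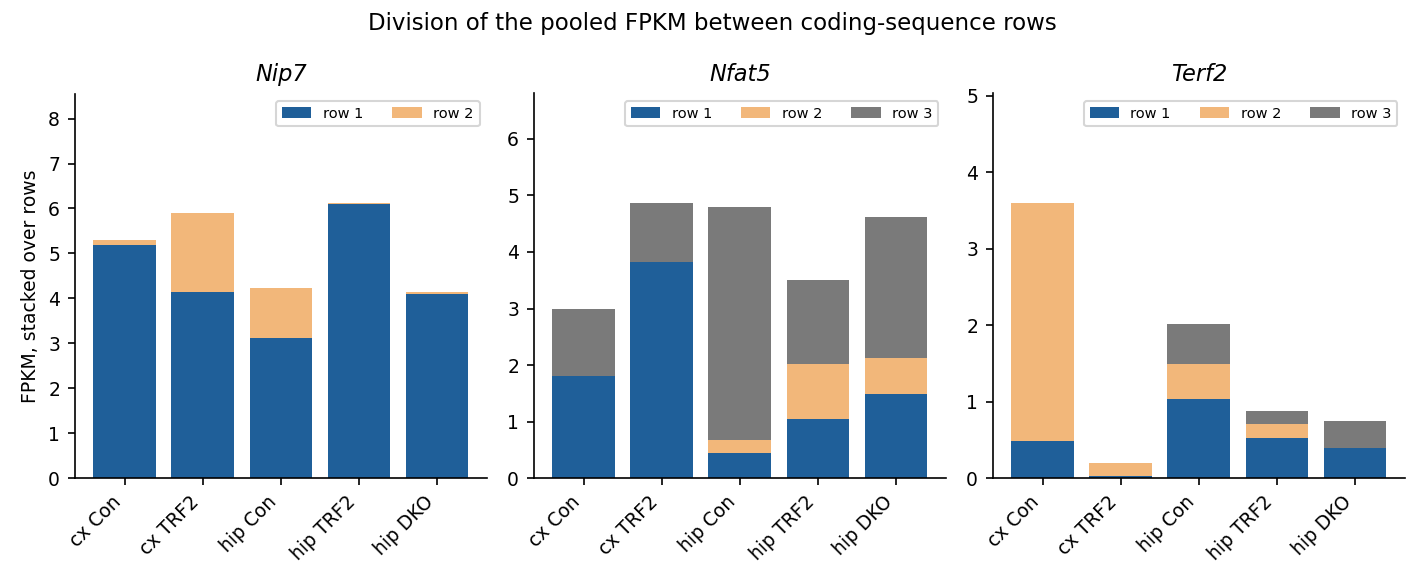
Pooled FPKM of Nip7, Nfat5 and Terf2, stacked over their coding-sequence rows in the order of the row identifiers, in cortex (cx) and hippocampus (hip) of the control (Con), TRF2-depleted (TRF2) and DKO conditions. The share of the first Nip7 row ranges from 70.2% to 99.9%, and the last Nfat5 row holds 86.0% of the gene in control hippocampus but 42.3% in the TRF2-depleted group.

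The order of the members' levels was steady. Cyb5b ranked first, Vps4a second, Nqo1 seventh and Tmed6 eighth in all 5 conditions, while Nip7, Nfat5, Sntb2 and Cog8 held places 3 to 6 in varying order. Cyb5b and Vps4a lay above 87.7% or more of genes with at least 1 FPKM in some condition, and Nqo1 above 11.3% to 15.5%. With no spread over samples, neighbours in this order, such as Cyb5b and Vps4a in cortex at 22.6 and 21.6 FPKM, cannot be said to differ. Between the control tissues the values side by side were closest for Vps4a (21.6 FPKM in both) and farthest apart for Nfat5 (2.99 FPKM in cortex and 4.80 FPKM in hippocampus).

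Over the 5 conditions the profiles nearest to that of Nfat5, by Euclidean distance of centred log2 FPKM among 9662 genes at 1 FPKM or more throughout, were those of Letmd1 (distance 0.15), Adat2 (0.16) and Ormdl1 (0.16). Letmd1 had 6.15 and 9.31 FPKM in cortex (control, then TRF2-depleted), and 9.01, 6.43 and 8.34 FPKM in hippocampus (control, TRF2-depleted and DKO in that order). How many genes lie this close to another was not counted.

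Beside all genes, the 7 members with signal lay within the central 95% of log2 ratios in each comparison, a range that holds most genes by definition. In cortex the median log2 ratio of the 7 members with signal was -0.06, against -0.03 over 11085 genes with at least 1 FPKM, with 2 members higher and 5 lower. It was -0.17 against 0.00 for TRF2-depleted hippocampus (2 higher, 5 lower), -0.06 against 0.01 for DKO against control (2 higher, 5 lower) and 0.06 against 0.01 for DKO against TRF2-depleted (4 higher, 3 lower). The central 95% of all genes ran from -0.89 to 0.80 in cortex and from -1.06 to 1.02 in TRF2-depleted hippocampus, and held every one of the 7. Terf2 lay outside it in both, with 0.253% of genes below it in cortex and 2.03% in hippocampus. For DKO against control the range was -0.92 to 1.08, again with all 7 members inside and Terf2 outside. The central 50% held 4 of the 7 in cortex and 2 in TRF2-depleted hippocampus. It held 4 in DKO against control and 3 in DKO against TRF2-depleted. The members' median absolute log2 ratio was 0.15, 0.21, 0.13 and 0.29 in that order, against 0.15, 0.17, 0.17 and 0.16 over all genes.

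Ratios lay farther from 0 among genes of the lower level range in these data, a description that was not tested. Genes with 1 row and a mean of 20 to 30 FPKM, the range of Cyb5b and Vps4a, had a median absolute log2 ratio of 0.10 in cortex, and those with a mean of 1 to 7 FPKM, the range of Sntb2, Cog8 and Nqo1, had 0.18. In TRF2-depleted hippocampus the values were 0.09 and 0.22. Absolute log2 ratios were at most 0.13 for Cyb5b and Vps4a in all 4 comparisons and up to 0.52 for Cog8. Nqo1, the lowest of the measured members, did not follow that division throughout, with log2 ratios of -0.07 in cortex and 0.06 in DKO against TRF2-depleted hippocampus. The smallest absolute log2 ratio called among rows with a mean of 1 to 7 FPKM in the authors' deposited table was 0.50 in cortex, 0.74 for TRF2-depleted against control hippocampus, 0.73 for DKO against control and 0.65 for DKO against TRF2-depleted. In each comparison the ratios of Sntb2 and Cog8 were below that comparison's own smallest called ratio, and a miss does not show that the groups were equal.

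**Figure D3:**
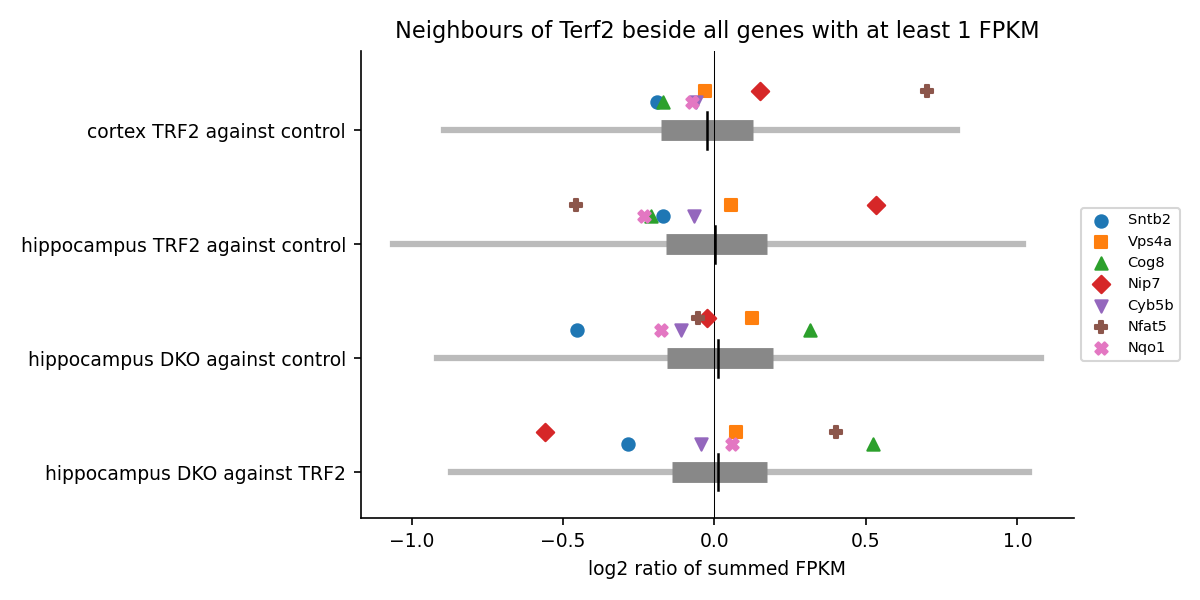
Log2 ratios of summed FPKM of the 7 neighbours with signal (symbols) beside all genes with at least 1 FPKM in 1 of the 2 conditions: the black tick is the median, the dark bar the central 50% and the light bar the central 95%. Every member lies within the light bar in each comparison, the farthest being Nfat5 at 0.70 in cortex.

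Within 1 Mb on each side of Terf2 the tables hold 18 further genes. Of these 11 were tested in cortex and 12 in each hippocampal comparison, and 0 were called in the authors' deposited table in any of the 4 comparisons. With an unadjusted p under 0.05 the counts were 1 in cortex and 0 in each of the others. Beside them stand 6.24% of all tested rows in cortex and 4.79% to 6.71% in the hippocampal comparisons. The 1 gene in cortex was Chtf8, a subunit of an alternative clamp loader for sister chromatid cohesion, with 11.2 and 8.98 FPKM in cortex (control, then TRF2-depleted) (p = 0.00695, q = 0.204 in the authors' deposited table). Chtf8 also had the smallest p of these genes in TRF2-depleted against control hippocampus (p = 0.105 in the authors' deposited table). Its level in hippocampus was 13.8, 11.8 and 13.2 FPKM (control, TRF2-depleted and DKO in that order). Prmt7, an arginine methyltransferase, came next in cortex, where the authors' deposited table gives 8.71 and 7.14 FPKM with p = 0.0515. In hippocampus the smallest p in DKO against TRF2-depleted was that of Slc7a6os, at 4.55 FPKM in the TRF2-depleted group and 1.87 FPKM in DKO (p = 0.106 in the authors' deposited table), and it had 3.49 FPKM in control.

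Cirh1a, a factor of small-subunit ribosome assembly, had 8.78 and 5.61 FPKM in TRF2-depleted and DKO hippocampus (p = 0.128 in the authors' deposited table) and 6.86 FPKM in control. The median log2 ratio of the further genes with at least 1 FPKM was -0.03 in cortex (13 genes), 0.16 in TRF2-depleted hippocampus (12 genes, 8 higher and 4 lower), 0.01 in DKO against control and -0.02 in DKO against TRF2-depleted. The hippocampal value of 0.16 was 0.03 with a window of 0.5 Mb and -0.03 with 2 Mb.

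**Figure D4:**
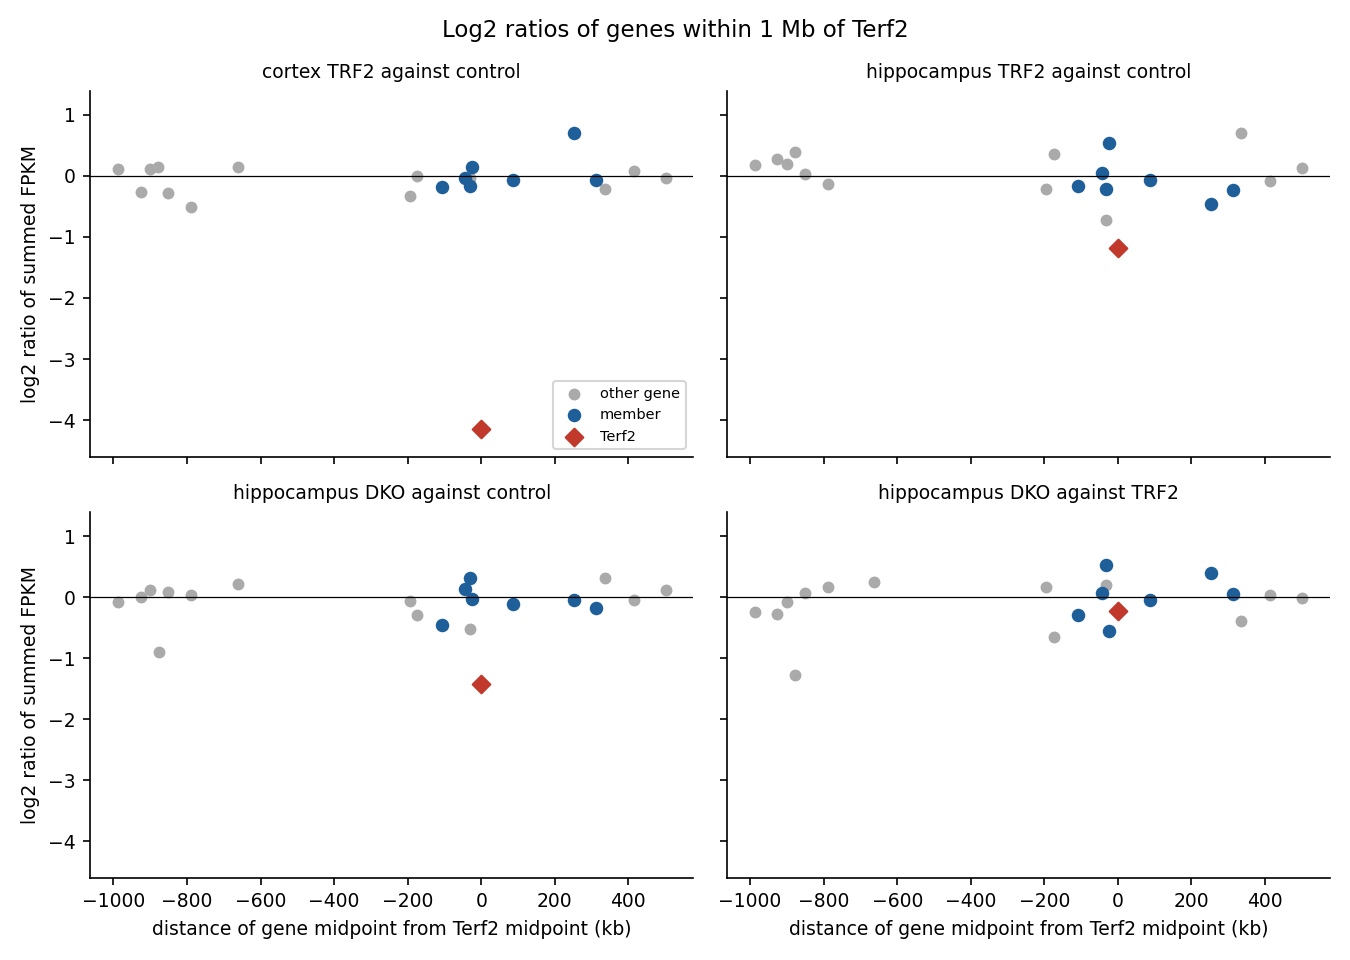
Log2 ratio of summed FPKM against the distance between gene midpoints and the Terf2 midpoint (kb), for genes with at least 1 FPKM in 1 of the 2 conditions, in 4 comparisons. Terf2 (diamond) stands at -4.15 in cortex, where the plotted genes around it (blue members, grey other genes) lie between -0.52 and 0.70, and Slc7a6os reaches -1.28 in DKO against TRF2-depleted hippocampus.

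Genes that work with the members were counted from lists chosen by function. Targets and regulators of NRF2, the stress factor that drives Nqo1, included the 1 called gene in all lists: Srxn1, which repairs oxidized peroxiredoxins, rose from 6.17 FPKM in control to 10.7 FPKM in DKO hippocampus by the authors' deposited table (log2 ratio 0.79, q = 0.0301). Of the 19 NRF2 genes tested there 1 rose, 0 fell and 18 did not pass, beside 0.181% of all tested rows called in that comparison. The median log2 ratio over 22 measured NRF2 genes was 0.10 against 0.01 over all genes. Nqo1 itself had 1.44 and 1.28 FPKM in the same comparison. Hmox1, the heme oxygenase of this group, had 2.49 and 1.35 FPKM in hippocampus (control, then TRF2-depleted) (p = 0.0171, q = 0.752 in the authors' deposited table). It was the 1 NRF2 row lower at an unadjusted p under 0.05 in that comparison, and 1 was higher. The list did not share the direction of Hmox1 there: 16 of its 22 measured genes were higher and 6 lower, with a median log2 ratio of 0.10. In cortex and in the other hippocampal comparisons 0 NRF2 genes were called in the authors' deposited table. There 1, 2 and 0 rows had an unadjusted p under 0.05 in cortex, TRF2-depleted against control and DKO against TRF2-depleted. The share of all tested rows was 6.24%, 4.89% and 4.79% in the same order.

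Osmotic response targets of NFAT5, which import or make osmolytes and chaperones, had a median log2 ratio of 0.31 in TRF2-depleted hippocampus over 10 measured genes, with 8 higher and 2 lower, against 0.00 over all genes. None of the 11 tested rows passed, and in the authors' deposited table the unadjusted p of 2 was under 0.05. These were the amino acid transporter Slc38a2, with 12.8 and 18.9 FPKM in hippocampus (control, then TRF2-depleted) (p = 0.0018, q = 0.339), and the chaperone Hspa1b, with 1.37 and 2.46 FPKM (p = 0.00305, q = 0.415), all from the authors' deposited table. For DKO against TRF2-depleted the median was -0.18 with 0 higher and 10 lower, and this comparison shares the TRF2-depleted values with the former. There 0 of 11 tested rows were called and 3, all lower, had an unadjusted p under 0.05. Over all tested rows that share was 4.89% in TRF2-depleted against control and 4.79% in DKO against TRF2-depleted. The summed Nfat5 value in TRF2-depleted hippocampus was the lowest of the 3 hippocampal conditions, opposite in direction to the median of this list. Of the list, Aqp1 is also counted below as a choroid plexus marker and Aqp4 as an astrocyte marker. Aqp1 had 1.58 FPKM in TRF2-depleted and 0.0683 FPKM in DKO hippocampus, and Aqp4 had 15.7 and 15.0 FPKM. The part of tissue content in the ratios of this list was not tested.

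In cortex the osmotic list had a median of 0.10 over 9 genes, with 7 higher, 2 lower and 0 called. Its 2 smallest p values there belong to rows of 1 gene, the kinase Sgk1, which go opposite ways (log2 ratios of -1.19 and 3.83, p = 0.00955 and 0.0374 in the authors' deposited table), while the sum over its 5 rows has a log2 ratio of 0.12. In DKO against control hippocampus the osmotic list had a median of -0.04 over 10 genes, 5 higher and 5 lower, with 0 of 10 tested rows called and 3 (1 higher, 2 lower) at an unadjusted p under 0.05, beside 6.71% of all tested rows. The smallest p there was that of the water channel Aqp4, with 20.1 and 15.0 FPKM (p = 0.00285, q = 0.405 in the authors' deposited table). The 1 higher row was that of Slc38a2, with 12.8 FPKM in control and 17.1 FPKM in DKO (p = 0.014, q = 0.714 in the authors' deposited table). Aqp4 is also on the list of the dystrophin complex, to which Sntb2 belongs.

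That dystrophin complex list had a median of -0.18 (log2 ratio) in cortex, with 2 of 11 measured genes higher and 9 lower, against -0.03 over all genes, and -0.13 in DKO against control hippocampus with 5 higher and 9 lower. In TRF2-depleted hippocampus its median was 0.03. None of its tested genes passed in any comparison. With an unadjusted p under 0.05 there was 1 of 8 tested rows in cortex, 1 of 12 in DKO against control and 0 in the others. The share of all tested rows was 6.24% in cortex and 6.71% in DKO against control. By the authors' deposited table the row in cortex was Dag1, the dystroglycan precursor, with 13.2 and 11.5 FPKM (p = 0.0413). Sntb2 had the same sign as the list median in cortex and in DKO against control, and the opposite sign in TRF2-depleted against control hippocampus (-0.17 beside 0.03).

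The remaining lists, apart from the NFAT relatives, had medians no farther than 0.10 from 0. The 7 other COG subunits had medians between -0.01 and 0.05, with 0 called of 7 tested and 0 whose unadjusted p in the authors' deposited table was under 0.05. ESCRT-III and VPS4 genes had medians between -0.02 and 0.01 over 12 measured genes, with 0 called. An unadjusted p under 0.05 was held by 1 row in cortex and 1 in TRF2-depleted against control hippocampus, beside 6.24% and 4.89% of all tested rows. The smallest p of these genes was that of Vta1, a cofactor of the VPS4 ATPases, with 12.5 and 16.6 FPKM in hippocampus (control, then TRF2-depleted) (p = 0.0148, q = 0.721 in the authors' deposited table). Ribosome assembly genes, grouped around Nip7, had medians between -0.01 and 0.02, with 0 of 21 tested genes called in cortex and 0 of 23 in each hippocampal comparison, and 0 whose unadjusted p in the authors' deposited table was under 0.05.

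The p24 cargo receptors related to Tmed6 had medians between -0.09 and 0.07 over 9 measured genes, with 0 called and 0 whose unadjusted p in the authors' deposited table was under 0.05. Tmed7 had 22.9 and 21.4 FPKM in cortex (control, then TRF2-depleted), so the family is present in this tissue although Tmed6 is listed at or near 0. The cytochrome b5 system, with Cyb5b's relatives, reductases and client desaturases, had medians between -0.08 and 0.10 over 9 measured genes, with 0 called. In cortex 1 row, that of the desaturase Fads2, had an unadjusted p under 0.05, beside 6.24% of all tested rows. Of the calcium-regulated NFAT relatives of Nfat5, 2 or 3 of 4 reached 1 FPKM, Nfatc3 was the 1 tested, in hippocampus, and it was not called. The medians of these few genes were 0.01 in cortex and 0.15 in TRF2-depleted against control hippocampus. They were 0.01 in DKO against control and -0.25 in DKO against TRF2-depleted.

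Tissue markers matched the labels. Cortical neuron markers summed to 117 and 119 FPKM in cortex and to 34.2 to 36.9 FPKM in hippocampus, and hippocampal neuron markers to 50.5 and 47.8 FPKM against 151 to 169 FPKM. The hippocampal list joins granule and pyramidal neuron markers, which did not move together. In hippocampus (control, TRF2-depleted and DKO in that order) C1ql2 had 19.2, 11.4 and 12.7 FPKM and Prox1 4.88, 1.38 and 2.64 FPKM. Fibcd1 had 15.5, 18.9 and 21.6 FPKM and Neurod6 50.8, 49.5 and 50.2 FPKM in the same order. Choroid plexus markers, 7 of 7 in the tables, summed to 96.9 and 1.88 FPKM in cortex (control, then TRF2-depleted), and to 277, 491 and 9.55 FPKM in hippocampus (control, TRF2-depleted and DKO in that order), with Kcne2 listed at 0 in TRF2-depleted cortex. Most of each sum was Ttr, with 93.3 and 1.15 FPKM in cortex and 264, 472 and 5.52 FPKM in hippocampus in the same orders. Of the 7 markers, 2 reached 1 FPKM in control cortex and 1 in TRF2-depleted cortex. In hippocampus 6, 6 and 2 did. Meningeal markers summed to 197, 310 and 319 FPKM in the hippocampal conditions, of which Ptgds gave 165, 265 and 283 FPKM. Striatal markers summed to 47.9 and 59.7 FPKM in cortex (control, then TRF2-depleted). The part of these differences in tissue content in the members' ratios was not tested. Microglial markers summed to 50.3 and 43.8 FPKM, endothelial markers to 30.9 and 34.0 FPKM, astrocyte markers to 159 and 163 FPKM and oligodendrocyte markers to 734 and 672 FPKM in cortex (control, then TRF2-depleted).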

How the data were processed

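The files hold 1 table per tissue in the layout of Cuffdiff's coding-sequence test, per the file headers. Base calling software (CASAVA 1.8), an aligner (TopHat2), Cufflinks, Cuffdiff and the build mm10 are listed in the submitters' processing notes. The same sources state no settings, strand use, annotation or further versions. The authors pooled replicates into 1 FPKM value per row and condition, per the file headers, with a deposited p-value and q-value. Counts of calls cover only the rows that the authors tested. No label ties samples to animals, so these p-values measure the spread between samples as the authors modelled it.

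FPKM was summed over the rows of each gene, and log2 ratios were taken with no pseudocount. All genes means those with at least 1 FPKM in 1 of the 2 conditions. List counts use rows called at a deposited q of 0.05. Where a list had no call, the 2 tested rows with the smallest p were eligible to be named, for lists the text describes. Beyond that rule, Pdf in DKO, Tmed7, the levels of Letmd1 and the control values beside a named pair were added with the values in view. One gene that the rule made eligible is not reported here. The members and lists were chosen with earlier results of these data known. Promoters come from RefSeq and gene positions from GENCODE M21, and the motifs were chosen after the sequences were seen. Comparisons by level range, by row number and of the smallest called ratio were also added later. Alternatives covered the q threshold, its adjustment, the minimum FPKM, the pseudocount, row choice, centring and the window around Terf2. Python 3.11.15, numpy 2.4.6, pandas 2.3.3 and matplotlib 3.10.9 were used, and the calculations were tested on simulated data.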

Additional observations from a re-analysis of the deposited data

How the results depend on the processing

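No paired analysis was possible because each condition has 1 pooled value, and leaving out a replicate was not possible for the same reason. The count of members called stayed at 0 in all 4 comparisons with a deposited q of 0.1, with a Benjamini-Hochberg adjustment within the comparison and with rows of at least 1 FPKM. At an unadjusted p under 0.05 it was 1 in TRF2-depleted against control hippocampus (Nip7) and 1 in DKO against control (Sntb2). The median of the member log2 ratios moved by less than 0.1 in each comparison under each pseudocount, with the most abundant row, with centring and with the 1 FPKM minimum. For single members, the most abundant row in place of the sum changed 2 of 28 signs, both of Nip7, and moved 7 of 28 values by 0.1 or more, while a pseudocount of 1 FPKM moved 4 of 28 and no sign. The median of the other genes near Terf2 in TRF2-depleted against control hippocampus was 0.028, -0.029 and -0.028 with windows of 0.5, 2 and 5 Mb, against 0.16 with 1 Mb. In DKO against TRF2-depleted it was 0.11 with 2 Mb, against -0.02. Calls among these genes stayed at 0 in every window. The read depth is unknown, and the low levels of Nqo1, Cog8 and Tmed6 limit what could be detected for them.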
